A study of Mus musculus with 10 samples.

Results

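The genes described here carry and modulate the insulin and insulin-like growth factor signals of the liver. They are the insulin receptor *Insr*, its substrates *Irs1* and *Irs2*, the kinase gene *Akt2*, the binding protein genes *Igfbp1* and *Igfbp2*, *Igf1* and its carrier *Igfals*, the growth hormone receptor *Ghr* and the feedback inhibitor *Socs2*. They were taken by name from the deposited expression table, which gave 10 of its 15126 genes, each on its own Ensembl identifier. All 10 passed the filter of a mean of at least 1 CPM (a gene's reads scaled to the reads counted on all genes of its library), as did 11041 genes in all. RNA-seq was done on livers of *db/db* mice, which lack a working leptin receptor and are obese, hyperinsulinemic and diabetic. The 5 livers described are those of AAV8-Control. Their *db/db* donors were injected with adeno-associated virus serotype 8, which delivers genes mainly to hepatocytes, with a vector that encoded eGFP. The livers were taken 5 weeks after that injection, when the donors were 10 weeks old. The other libraries of the series were not used here, so the values below are levels and their spread in 1 group, with no comparison between groups and no test.

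Insulin binds its receptor, a tyrosine kinase, which phosphorylates IRS1 and IRS2. These dock phosphatidylinositol 3-kinase (PI3K), which leads to activation of AKT2, the main AKT isoform of insulin action in liver, and AKT excludes the FoxO1 transcription factor from the nucleus. FoxO1 raises *Igfbp1*, *Irs2* and *Insr* in fasted liver, so that insulin lowers them. Growth hormone acts through GHR, JAK2 and STAT5 to raise *Igf1*, *Igfals* and *Socs2*, and SOCS2 in turn restrains the receptor. IGF1 circulates in a complex with a binding protein and the acid-labile subunit encoded by *Igfals*.

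The libraries held 19499795 to 35498596 reads, and the mean correlation of a library with the other 4 was 0.989 to 0.992 on log2(CPM + 1). Labels of these samples name both liver and primary hepatocytes. Summed over 9 hepatocyte markers the level was 99319 to 134960 CPM. Summed over 8 Kupffer cell and macrophage markers it was 151 to 309 CPM, and over 7 sinusoidal endothelial markers 146 to 289 CPM, so signal of other liver cells was present in every library. In bulk liver, fewer cells of a type and less RNA per cell cannot be told apart. No source used here states the feeding state at collection, and the promoter of the vector is not given either.

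The letters that FoxO, insulin response and STAT5 elements are built on were looked for upstream of the 10 genes, because these elements are where insulin and growth hormone reach several of them. RefSeq promoter windows of GRCm38.p6, which run from 250 bases before to 50 bases after a transcript start, were found for 8 of the 10 genes, in 15 windows. *Insr* and *Socs2* had no window in the table used here. The letters TGTTTTG, the core of the insulin response element, were in windows of *Irs1*, *Irs2* and *Igfbp1*, against 6.28% of 32851 windows. The FoxO core TGTTTAC was in a window of *Igfals* (3.65% of windows), and TTCNNNGAA, the STAT5 core, was in windows of *Akt2* and *Igfals* (8.30% of windows). The cyclic AMP response core TGACGTCA was in no window of these genes and in 1.79% of all windows. Both strands were searched, and no match overlapped another. The 250 bases before each start with a match are shown 5′ to 3′ along the gene's strand, with matches in capitals, so that a reader can see where the letters lie.
*Irs1*, chr1:82291440-82291689, reverse strand: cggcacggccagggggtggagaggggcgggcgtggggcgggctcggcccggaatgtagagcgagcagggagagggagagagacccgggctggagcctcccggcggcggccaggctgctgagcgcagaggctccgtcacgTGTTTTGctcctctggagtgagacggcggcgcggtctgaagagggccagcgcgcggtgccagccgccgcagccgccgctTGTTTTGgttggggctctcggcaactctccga
*Irs2*, chr8:11008930-11009179, reverse strand: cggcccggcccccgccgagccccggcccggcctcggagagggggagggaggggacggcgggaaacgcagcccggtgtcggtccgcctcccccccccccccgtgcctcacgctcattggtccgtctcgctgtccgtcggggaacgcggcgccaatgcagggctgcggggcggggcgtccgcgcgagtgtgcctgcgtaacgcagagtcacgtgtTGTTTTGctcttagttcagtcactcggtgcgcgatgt
*Igfbp1*, chr11:7197537-7197786, forward strand: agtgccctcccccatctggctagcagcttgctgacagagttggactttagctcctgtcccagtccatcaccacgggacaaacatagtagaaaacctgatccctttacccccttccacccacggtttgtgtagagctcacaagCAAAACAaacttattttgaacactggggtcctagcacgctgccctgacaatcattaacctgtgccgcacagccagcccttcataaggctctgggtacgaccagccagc
*Igfals*, first window, chr17:24877594-24877843, forward strand: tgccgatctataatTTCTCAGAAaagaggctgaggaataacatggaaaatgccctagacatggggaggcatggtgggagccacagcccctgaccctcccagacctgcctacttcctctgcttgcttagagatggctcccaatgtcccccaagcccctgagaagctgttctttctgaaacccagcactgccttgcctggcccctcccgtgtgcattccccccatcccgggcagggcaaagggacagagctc
*Igfals*, second window, chr17:24877981-24878230, forward strand: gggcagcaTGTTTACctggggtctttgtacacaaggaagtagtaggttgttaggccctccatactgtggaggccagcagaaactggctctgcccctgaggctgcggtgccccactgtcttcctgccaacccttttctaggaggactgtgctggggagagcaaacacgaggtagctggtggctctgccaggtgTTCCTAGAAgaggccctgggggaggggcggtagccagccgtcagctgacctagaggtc
*Akt2*, chr7:27591302-27591551, forward strand: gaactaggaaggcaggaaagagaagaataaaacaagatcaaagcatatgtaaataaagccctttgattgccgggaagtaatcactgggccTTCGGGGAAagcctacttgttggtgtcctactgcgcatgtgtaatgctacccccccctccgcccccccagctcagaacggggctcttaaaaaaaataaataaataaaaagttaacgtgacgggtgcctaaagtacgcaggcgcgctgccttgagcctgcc
In *Irs1* the letters began 111 and 32 bases before the start, and in *Irs2* they began 37 bases before it. In *Igfbp1* they lay on the opposite strand, as CAAAACA, beginning 108 bases before the start. The STAT5 core began 236 bases before the start in the first *Igfals* window, 58 bases before it in the second, and 160 bases before the *Akt2* start. The FoxO core of the second *Igfals* window began 242 bases before that start. By GENCODE release M21, the *Irs1* and *Akt2* stretches lie outside genes, the *Irs2* stretch lies in an intron of the opposite-strand gene 9530052E02Rik, 5 bases of the *Igfbp1* stretch are annotated as its untranslated exon, and the *Igfals* stretches lie inside the *Igfals* gene with 188 and 16 bases in exons. A match of letters is a description and does not show that a factor binds there, nor does the lack of one show that none binds.

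The receptor gene *Insr* (ENSMUSG00000005534) occupies bases 3122061 to 3279617 of chromosome 8, reverse strand, in GRCm38, the build of all positions given here. Its level was 108, 75.8, 86.1, 87.2 and 89.1 CPM in replicates 1 to 5, a mean of 89.2 ± 11.7 CPM (SD, n = 5). Replicate 1 stood above the other 4 livers, which lay close together.

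*Irs1*, the substrate that couples the receptor to PI3K, occupies bases 82233101 to 82291416 of chromosome 1, reverse strand (ENSMUSG00000055980). Its level was 16.1, 11.8, 9.89, 15.7 and 15.4 CPM in replicates 1 to 5, a mean of 13.8 ± 2.76 CPM (SD, n = 5). Replicates 1, 4 and 5 were high and replicates 2 and 3 low. In GENCODE M21, 2822 of the 9144 exonic bases of *Irs1* are shared with the opposite-strand gene *Gm9747*, which has no line in the table. The library preparation described does not mark strand, and only unambiguous reads were counted. Reads in the shared bases may thus have been dropped, which would make the *Irs1* level too low, in CPM and per kb. If *Gm9747* was not annotated in counting, they were counted as *Irs1* whichever gene they came from. Ratios to *Irs2* carry the same limit.
*Irs2*, the substrate that fasting raises and insulin lowers, occupies bases 10984681 to 11008458 of chromosome 8, reverse strand (ENSMUSG00000038894). It was at 9.69, 5.39, 3.38, 4.88 and 4.30 CPM in replicates 1 to 5, a mean of 5.53 ± 2.44 CPM (SD, n = 5). Replicate 1 was 2.87 times replicate 3, the lowest liver, and without it the mean was 4.49 CPM. The libraries held 89 to 189 *Irs2* reads. Of its exons, 162 bases are shared with the opposite-strand gene 9530052E02Rik, also without a line in the table.
The ratio of *Irs1* to *Irs2* CPM within a liver, which does not depend on the scaling of the library, was 1.66, 2.20, 2.93, 3.21 and 3.57 in replicates 1 to 5. Per kb of merged exon the ratio was 1.15 to 2.47. *Irs1* was thus the higher of both substrates in every control liver on either scale, least so in replicate 1, where *Irs2* was highest.

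*Akt2* (ENSMUSG00000004056) occupies bases 27591552 to 27640826 of chromosome 7, forward strand. It was at 63.3, 48.8, 53.6, 48.0 and 50.8 CPM in replicates 1 to 5, a mean of 52.9 ± 6.22 CPM (SD, n = 5). As with *Insr*, replicate 1 was the high liver and the other 4 were close to each other.

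**Figure D1:**
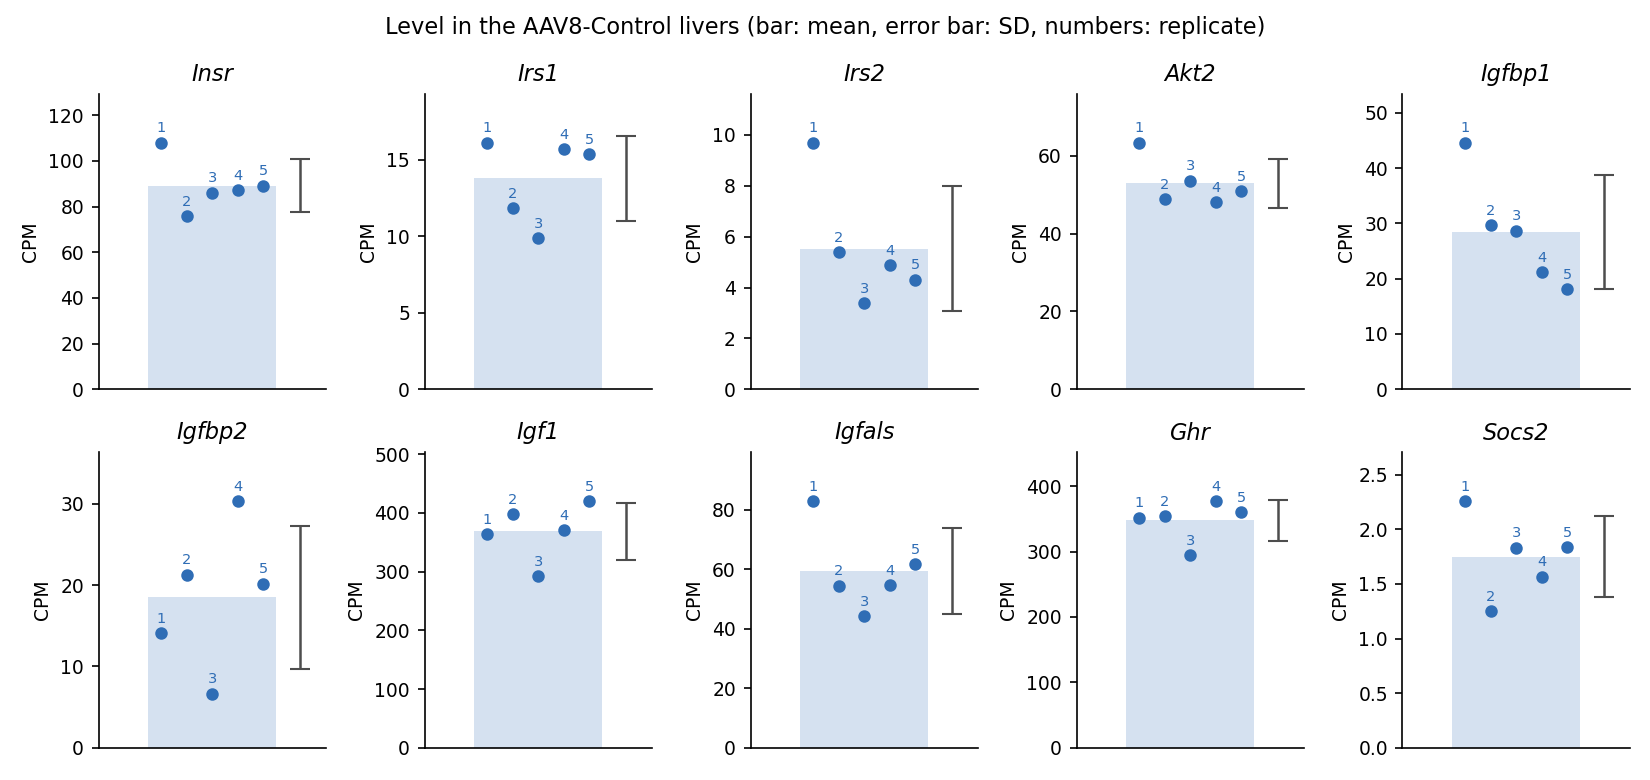
CPM (vertical axes, each from 0) of the 10 genes in each of the 5 AAV8-Control livers. Points are livers numbered by replicate, bars are means and error bars are SD, n = 5. *Igfbp2* and *Irs2* spread widely, and *Ghr* lies between 295 and 377 CPM.

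*Igfbp1*, which encodes a binding protein that insulin shuts off within hours and that binds free IGF1, occupies bases 7197782 to 7202546 of chromosome 11, forward strand (ENSMUSG00000020429). It was at 44.6, 29.6, 28.6, 21.2 and 18.1 CPM in replicates 1 to 5, a mean of 28.4 ± 10.3 CPM (SD, n = 5). The highest liver was replicate 1, at 2.47 times replicate 5.
*Igfbp2*, another hepatic binding protein of IGF1 and IGF2, occupies bases 72824503 to 72852474 of chromosome 1, forward strand (ENSMUSG00000039323). Its level was 14.1, 21.3, 6.62, 30.3 and 20.2 CPM in replicates 1 to 5, a mean of 18.5 ± 8.80 CPM (SD, n = 5). Replicate 4 was the highest and replicate 3 the lowest, 4.58 times apart, the widest range of the 10 genes. Without replicate 3 its range was 2.15 times, below the 2.47 times of *Igfbp1* and the 2.25 times of *Irs2*, and its percentile of SD among all genes was 97.2 against 98.9 and 97.6 for these genes.
The ratio of *Igfbp1* to *Igfbp2* CPM was 3.16, 1.39, 4.33, 0.700 and 0.897 in replicates 1 to 5. The binding protein gene with the more reads was therefore *Igfbp1* in replicates 1, 2 and 3 and *Igfbp2* in replicates 4 and 5. Per kb of merged exon the ratio was 0.848 in replicate 4 and 1.09 in replicate 5, so per length *Igfbp2* was the higher in replicate 4 alone.

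*Igf1*, the growth factor that liver secretes under growth hormone, occupies bases 87858265 to 87937042 of chromosome 10, forward strand (ENSMUSG00000020053). It was at 364, 398, 292, 370 and 420 CPM in replicates 1 to 5, a mean of 369 ± 48.4 CPM (SD, n = 5), with replicate 3 the low liver. *Igfals* occupies bases 24865997 to 24882010 of chromosome 17, forward strand (ENSMUSG00000046070). It was at 82.8, 54.4, 44.1, 54.6 and 61.6 CPM in replicates 1 to 5, a mean of 59.5 ± 14.4 CPM (SD, n = 5). Replicate 1 was the highest for *Igfals*, and replicate 3 was the lowest for both genes. The ratio of *Igfals* to *Igf1* CPM was 0.137 to 0.151 in replicates 2 to 5 and 0.228 in replicate 1.
*Ghr* occupies bases 3317760 to 3583492 of chromosome 15, reverse strand (ENSMUSG00000055737), and in CPM its levels were the most even of the 10 genes. They were 351, 354, 295, 377 and 360 CPM in replicates 1 to 5, a mean of 348 ± 31.1 CPM (SD, n = 5). The highest liver was 1.28 times the lowest, replicate 3. By the SD of log2(CPM + 1), *Akt2* was the most even gene with DESeq2's size factors or TMM and without replicate 1, and without replicate 2 it was *Socs2*. *Socs2* occupies bases 95385362 to 95417180 of chromosome 10, reverse strand (ENSMUSG00000020027) and was the scarcest of the 10. Its level was 2.26, 1.25, 1.83, 1.57 and 1.84 CPM in replicates 1 to 5, from 26 to 65 reads per library. Replicate 1 was the highest for *Socs2* and replicate 2 the lowest.

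Replicate 1 was the highest of the 5 livers for 7 of the 10 genes in CPM, namely *Insr*, *Irs1*, *Irs2*, *Akt2*, *Igfbp1*, *Igfals* and *Socs2*, and for 37.8% of all genes that passed the filter. With DESeq2's size factors, which scale replicate 1 down, it was the highest for 6 of the 10 and for 23.6% of all genes, *Irs1* then being highest in replicate 4. Replicate 3 was the lowest for 6, namely *Irs1*, *Irs2*, *Igfbp2*, *Igf1*, *Igfals* and *Ghr*, and for 22.0% of all genes. In replicate 1 the hepatocyte markers had their lowest sum and the sinusoidal endothelial markers their highest, and the part of cell makeup in these levels was not tested.

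Per length, the genes fell into 4 tiers. In CPM per kb of merged exon, *Ghr* was at 38.4 ± 3.43 and *Igf1* at 37.2 ± 4.88 (SD, n = 5), and the ranges of these neighbours overlapped. *Igfals* at 18.8 ± 4.55, *Igfbp1* at 18.6 ± 6.73 and *Igfbp2* at 10.0 ± 4.77 followed, each overlapping the next. *Akt2* at 7.42 ± 0.872 and *Insr* at 6.49 ± 0.849 overlapped each other and the range of *Igfbp2*. *Irs1* at 1.51 ± 0.301 and *Irs2* at 0.875 ± 0.387 CPM per kb overlapped and lay below every *Insr* value, and *Socs2* at 0.183 ± 0.0390 lay below all. The ranges parted between *Igf1* and *Igfals*, between *Insr* and *Irs1*, and between *Irs2* and *Socs2*. The first of these gaps was narrow, as *Igfbp1* reached 29.2 CPM per kb in replicate 1 and *Igf1* fell to 29.5 in replicate 3. Set against all genes that passed the filter, whose median was 3.24 CPM per kb, *Ghr* and *Igf1* stood at percentiles 91.4 and 91.2, *Insr* at 66.9, *Irs1* at 30.1, *Irs2* at 18.6 and *Socs2* at 1.54. As reads were counted over whole genes, transcripts of different length are not told apart.

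**Figure D2:**
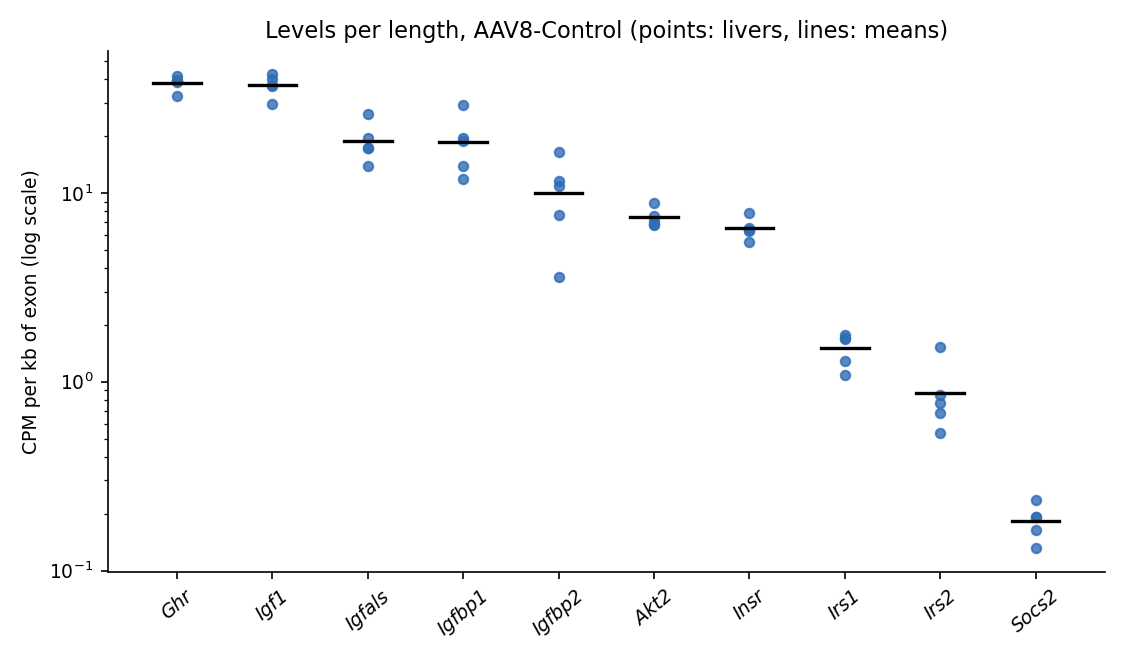
CPM per kb of merged exon (vertical axis, log scale) of the 10 genes in the AAV8-Control livers, ordered by their mean. Points are livers and short lines are means, n = 5. *Irs1* and *Irs2* lie below *Insr* in every liver, and *Socs2* lies lowest.

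Levels of *Igfbp2*, *Igfbp1* and *Irs2* varied more from liver to liver than those of nearly all genes. Their SD over the 5 livers, on log2(CPM + 1), was 0.77, 0.48 and 0.48, at percentiles 99.7, 98.1 and 98.1 of the 11041 genes, whose median SD was 0.14. Against genes of a similar level the percentiles were 99.9, 98.7 and 97.8. *Igfals* stood at percentile 93.0 and *Irs1* at 89.8 of all genes. *Igf1*, *Socs2* and *Insr* followed at 74.8, 74.3 and 69.1, and *Akt2* and *Ghr* were at 60.2 and 49.0. Against genes of a similar level *Igfals* and *Irs1* stood at 96.0 and 92.5, *Insr*, *Igf1* and *Akt2* at 82.6, 78.3 and 75.7, *Ghr* at 60.1 and *Socs2* at 49.8, so on that scale *Socs2* and not *Ghr* came last. The binding proteins and *Irs2* thus sat near the top in spread, while in CPM the receptor of growth hormone sat near the middle. With DESeq2's size factors *Akt2* was at percentile 42.7 and *Ghr* at 56.5, so the order of the pair turned. Placement rested in part on single livers. *Ghr* was at percentile 4.73 and *Igf1* at 27.9 without replicate 3, and *Akt2* at 18.2 and *Insr* at 39.8 without replicate 1. *Irs2* was at 84.4 and *Igfals* at 77.0 without replicate 1, and *Irs1* was at 72.7 without replicate 3.

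**Figure D3:**
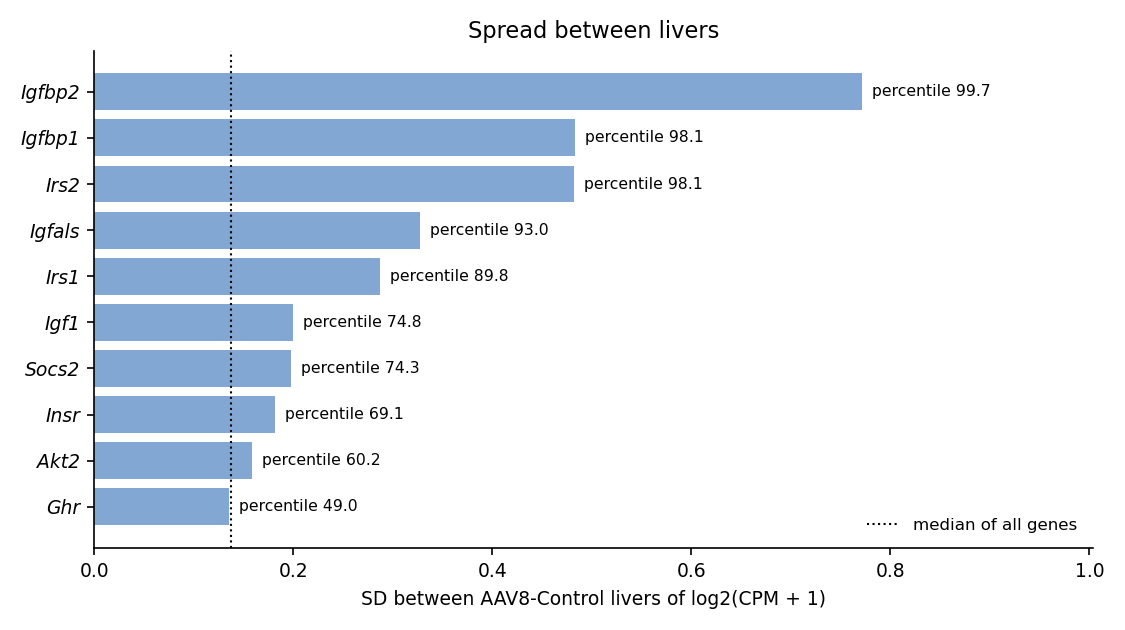
SD of log2(CPM + 1) over the 5 AAV8-Control livers (horizontal axis, from 0) of the 10 genes, with its percentile among all genes that passed the filter. The dotted line is the median SD of those genes, 0.14, and *Igfbp2* reaches 0.77.

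The pathways around these genes were read through 8 lists, in which 81 other genes passed the filter. Of these, 28 were among the 10% of all genes with the largest SD between livers, which is 34.6% of them, as were 4 of the 10 genes described, *Igfbp2*, *Igfbp1*, *Irs2* and *Igfals*. Of the 10, the count was 3 without replicate 1, where *Irs2* (percentile 84.4) and *Igfals* (77.0) dropped out and *Irs1* came in, and 3 without replicate 3 and with a pseudocount of 0.1. It was 5 without replicate 2, 4 or 5.
Of 16 genes that passed the filter for the insulin receptor, its adaptors and its inhibitors, 2 were among those variable genes, *Irs2* being 1 of them, and the median level was 3.94 CPM per kb. The other, *Sh2b2*, had a mean of 1.03 CPM, close to the filter, from 7 to 42 reads per library. *Ptpn1*, the phosphatase that dephosphorylates the receptor, was at 24.9 ± 2.63 CPM (SD, n = 5), and *Inppl1*, the lipid phosphatase SHIP2, was at 25.5 ± 1.17 CPM. *Igf1r* and *Socs1* were under the filter. Of 24 genes of PI3K, AKT and FoxO, 2 were among the variable genes, and the median SD of the list, 0.11, was below that of all genes. The variable genes were *Trib3* and *Phlpp2*, the latter at 2.34 CPM from 41 to 109 reads per library. *Rictor*, a subunit of the mTORC2 complex that phosphorylates AKT, was at 14.5 ± 0.906 CPM.
All 9 genes counted of those that insulin raises in liver were among the variable genes, with SD of 0.50 to 1.13 on the log2 scale. All 9 were lowest in replicate 4 and 8 were highest in replicate 3, the median deviation of the list from each gene's mean being -1.06 and 0.68 on the log2 scale in these livers. Over all genes that passed the filter, replicate 4 was the lowest liver for 31.7% and replicate 3 the highest for 15.8%. In replicate 4 the summed hepatocyte markers were highest, at 134960 CPM, while the sums of 4 adipocyte markers (12.7 to 79.9 CPM over the livers), 8 stellate cell and fibroblast markers (242 to 334 CPM) and 7 sinusoidal endothelial markers were lowest, and their part in these levels was not tested. Without replicate 4, 7 of the 9 were among the variable genes, with SD of 0.23 to 0.67. *Me1*, which makes NADPH for lipid synthesis, was at 343 ± 123 CPM, and *Pnpla3*, a lipid droplet protein gene under SREBP-1c, at 11.3 ± 8.32 CPM with the largest SD of the list. Of 13 genes that FoxO1 raises in fasted liver, *Igfbp1*, *Irs2* and *Insr* included, 6 were among the variable genes, *Igfbp1* and *Irs2* being 2 of them. *Pck1*, the gluconeogenic carboxykinase, was at 1976 ± 566 CPM, the coactivator gene *Ppargc1a* at 17.0 ± 4.27 CPM, and *Mttp*, which loads lipid onto apolipoprotein B, at 414 ± 44.5 CPM.
On the growth hormone side, 1 of 12 genes of the receptor, JAK2 and STAT5 list was among the variable genes. *Cish*, a STAT5-induced inhibitor of the same family as *Socs2*, was at 1.53 ± 0.422 CPM and 0.239 CPM per kb, so both inhibitors were scarce beside *Ghr* per length. Of the insulin-like growth factors, carriers and proteases, 7 of 11 were among the variable genes, 3 of them being *Igfbp1*, *Igfbp2* and *Igfals*. *Igfbp4* had the highest level of that list, at 395 ± 56.7 CPM per kb, and *Igfbp3*, which forms the circulating complex with IGF1 and the acid-labile subunit, was at 7.69 ± 1.97 CPM per kb. Targets of growth hormone that differ between the sexes included 5 of 7 male-biased and 3 of 4 female-biased genes among the variable ones. The authors describe the mice they bought as male, though the wording may cover only the wild-type strain. *Elovl3*, a male-biased fatty acid elongase, was at 31.7 ± 6.86 CPM, and *Nudt7*, a peroxisomal hydrolase of coenzyme A, at 233 ± 25.7 CPM.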

How the data were processed

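RNA-seq was performed on 5 AAV8-Control liver samples of *db/db* mice with single reads of 50 bases. The authors aligned the reads with STAR 2.0.4b to Ensembl release 76 and counted unambiguous unique reads on genes with featureCounts 1.4.5. The deposited values are CPM, scaled to all reads counted on genes, in 15236 lines for 15126 genes (110 lines repeat a gene). Whole reads were recovered from the CPM steps for 100% of values, within a tolerance of 0.02 reads. A further 5 columns of the table were not used here. The comparison of groups planned for these data, and some genes of the lists, are not reported here.

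The 11041 genes whose mean reached 1 CPM in these livers were ranked by the SD of log2(CPM + 1), and genes of a similar level were those within 0.5 on the log2 scale of mean CPM. Alternatives were a pseudocount of 0.1, no filter, at least 10 reads in every library, DESeq2's size factors (version 1.42.0), TMM (edgeR 4.0.16, R 4.3.3) and each library left out in turn. Tested on counts of 15126 genes simulated at known depths, both scalings gave those depths within 0.142%. Positions and exon lengths are from GENCODE M21 (GRCm38) and promoters from RefSeq (GRCm38.p6). The SD covers the spread between these libraries, and the labels do not say that each is a separate animal.

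The 10 genes and the pathway lists were chosen with earlier results of these data known, and the other genes named were chosen after their values were seen. Comparison of the proteins was not done here.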

Additional observations from a re-analysis of the deposited data

How the results depend on the processing

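All alternatives were added after the data were seen. Leaving out 1 of 5 livers cannot move a mean by 1 SD, so for levels and ratios the ranges are given in place of a verdict. Percentiles of spread that moved by over 1.5 times were those of *Ghr* and *Igf1* without replicate 3 and of *Akt2* and *Insr* without replicate 1, and the cause was not tested. With DESeq2's size factors or TMM, mean levels moved little, as from 28.4 to 28.2 CPM for *Igfbp1*. With each library left out in turn, the mean of *Irs2* was 4.49 to 6.07 CPM, that of *Igfbp2* 15.5 to 21.5 CPM and the log2 ratio of *Igfbp1* to *Igfbp2* 0.37 to 1.02. The percentile of *Igfbp2* stayed at 97.2 or above, that of *Igfbp1* at 93.3 or above, and those of *Irs2*, *Igfals* and *Irs1* were 84.4, 77.0 and 72.7 at their lowest. Variable genes counted 3 in the receptor list without replicates 2 or 4, 1 in the PI3K list without replicates 3 or 4, and 2 in the JAK2 and STAT5 list with either scaling or without replicate 1. In the insulin-like growth factor list they counted 5 without replicate 3, and 6 without replicates 1 or 2 or with the pseudocount of 0.1. The FoxO1 list held 5 without replicate 1, and 7 with either scaling or without replicates 2 or 3. The male-biased list held 4 without replicates 2, 4 or 5 or with the pseudocount of 0.1. No paired analysis was possible because values of 1 group are reported and no result comes from a test. Depth limits *Socs2* most, at 26 to 65 reads per library.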
